A study of Rattus norvegicus with 9 samples.

Results

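The immediate early genes are those that a cell transcribes within minutes of a stimulus, before any new protein is made. A list of 35 such genes was followed here in pancreatic islets of rats on 2 diets, out of 14217 genes with a named probe set. Members were chosen by gene symbol: a probe set counted if the platform annotation gives it exactly 1 symbol and that symbol is on the list. Of the 35 members, 34 had a named probe set, with 56 probe sets in all, and Btg2 had none named here. Where a gene had several, the probe set with the highest mean signal over 9 arrays was used.

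Islets were isolated from adult male Wistar rats, 7 weeks old and 225 to 250.0 g at the start, housed singly and fed for 30 days either standard chow, with 8% of calories from fat, or a cafeteria diet, with 66%. The labels describe no genetic change in either group, and islets of both were released by collagenase, separated on a density gradient and picked by hand. The series held 4 standard and 5 cafeteria arrays here, each from an independent sample; the design text counts 10 arrays, and the other was not analysed here. Each array, an Affymetrix Rat Genome 230 2.0 GeneChip, gave 1 linear signal per probe set, with array medians between 146.9 and 166.6, and precision is limited by how few arrays there are. Each sample was assigned to its diet by title, source name and description, which match; another label, a diet characteristic, gives the opposite diet in 9 of 9 samples, and under it every difference below would change sign. The hormone genes that define islets had high signals in both groups, with means of 30614 and 32470 for Ins1 and 40403 and 42076 for Gcg in standard and cafeteria islets. As islets are a mixture of cells, fewer cells of a type and less RNA per cell cannot be told apart.

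Most immediate early genes encode transcription factors, and their promoters are held ready by factors already present in the cell. Calcium and cyclic AMP act through CREB, which binds the cAMP response element, and the ERK pathway acts through SRF, which binds the CArG box of serum response elements. In beta cells glucose, incretins and depolarisation switch these genes on, and their transcripts come and go quickly. Other members shut the response down: the dual specificity phosphatases remove phosphate from MAP kinases, and the ZFP36 proteins speed the decay of AU-rich messengers.

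The sequence around a listed start was available for 25 of the 35 members in RefSeq's table (build GRCr8). The window ran from 250 bases before to 50 bases after that start. The listed start is not always the outer end of the gene. For some members, among them Egr2, Nr4a1, Nr4a2, Klf4 and Zfp36l1, the 250 bases lie inside the gene's own span. Those of Nr4a2 are at chr3:62104888-62105137, in a gene spanning 62098739 to 62115926. A CArG box was found in 5 of the 25 (20%), namely Egr1, Egr2, Dusp5, Klf6 and Zfp36, and in 1.64% of 27457 promoters of the same length. The full cAMP response element, TGACGTCA, was found in 4 of the 25 (16%), namely Jund, Dusp1, Btg2 and Ier2, and in 1.91% of all promoters. Its shorter form, TGACG, which lies within the full one, was in 15 of the 25 (60%) and in 6030 of the 27457. The EGR site, GCGNGGGCG, was in 8 (32%) against 5.29% of all, and the TATA box, TATAAA, in 6 (24%) against 14.3%. A loose form of the AP-1 site, TGANTCA, which allows any middle base, was in 1 (4%), against 7.33%. That match, in Zfp36l1, reads TGATTCA. Both strands were searched. Such matches describe letters and show no binding. The 250 bases upstream of 6 tested members are given 5′ to 3′ to show the kinds of site that occur, with capitals for CArG boxes, TGACGTCA, TGANTCA, GCGNGGGCG and TATAAA. The first 2 carry a full cAMP response element, the next 3 carry CArG boxes, and Jund, whose signal hardly varied, carries both a full cAMP response element and EGR sites.
Dusp1: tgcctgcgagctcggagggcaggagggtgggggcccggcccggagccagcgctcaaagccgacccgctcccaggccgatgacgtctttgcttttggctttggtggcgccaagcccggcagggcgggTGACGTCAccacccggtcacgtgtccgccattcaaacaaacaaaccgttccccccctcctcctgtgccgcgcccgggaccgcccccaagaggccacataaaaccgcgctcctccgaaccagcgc
Ier2: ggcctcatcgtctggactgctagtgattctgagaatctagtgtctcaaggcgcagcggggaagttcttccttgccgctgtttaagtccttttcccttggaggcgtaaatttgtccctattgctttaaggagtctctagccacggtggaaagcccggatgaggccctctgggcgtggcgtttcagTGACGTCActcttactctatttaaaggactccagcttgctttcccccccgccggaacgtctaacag
Zfp36: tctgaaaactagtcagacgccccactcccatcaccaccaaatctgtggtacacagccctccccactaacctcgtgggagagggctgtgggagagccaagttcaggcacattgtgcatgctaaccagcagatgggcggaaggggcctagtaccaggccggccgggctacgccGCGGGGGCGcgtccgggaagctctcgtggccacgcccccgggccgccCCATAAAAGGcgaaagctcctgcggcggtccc
Klf6: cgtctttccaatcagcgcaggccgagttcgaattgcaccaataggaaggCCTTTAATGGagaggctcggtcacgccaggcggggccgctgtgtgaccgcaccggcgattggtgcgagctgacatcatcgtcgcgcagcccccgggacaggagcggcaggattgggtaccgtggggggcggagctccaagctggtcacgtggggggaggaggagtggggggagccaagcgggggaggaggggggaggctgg
Dusp5: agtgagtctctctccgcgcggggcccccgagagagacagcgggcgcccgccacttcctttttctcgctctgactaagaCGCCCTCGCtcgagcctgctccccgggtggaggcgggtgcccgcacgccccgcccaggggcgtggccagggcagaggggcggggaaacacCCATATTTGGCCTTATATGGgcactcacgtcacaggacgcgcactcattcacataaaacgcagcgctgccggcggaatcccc
Jund: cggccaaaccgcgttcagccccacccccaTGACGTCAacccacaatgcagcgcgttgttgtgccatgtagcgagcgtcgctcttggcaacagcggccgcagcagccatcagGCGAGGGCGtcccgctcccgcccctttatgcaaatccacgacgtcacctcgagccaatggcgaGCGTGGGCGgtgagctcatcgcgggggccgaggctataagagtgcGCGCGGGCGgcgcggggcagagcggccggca
They lie at chr10:17184603-17184852 (plus strand), chr19:40399123-40399372 (plus strand), chr1:92799109-92799358 (minus strand), chr17:69458479-69458728 (minus strand), chr1:262543524-262543773 (plus strand) and chr16:18769772-18770021 (minus strand). In Dusp5 the CArG boxes stand next to each other, from 82 to 63 bases before the start. Dusp1 and Jund both carry a full cAMP response element and spread differently over the arrays: in signal + 16, as for all folds of single arrays here, the highest array stood 3.53-fold over the lowest for Dusp1 and 1.48-fold for Jund.

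No member passed the test between the diets over all genes. Signals were compared as log2(signal + 16) in limma over the 18625 probe sets whose mean log2 value reached the 40th percentile. Benjamini-Hochberg adjustment ran over all of them, and a call needed an adjusted p under 0.05. Of the 34 members, 27 passed that filter and 0 of 27 were called (limma, lowest adjusted p = 0.839), where 0.0% of all probe sets were called. At an unadjusted limma p under 0.05 there were 4 of 27 members, where 5.8% of all probe sets passed. These were Zfp36, Ier2, Ier5 and Junb, lower in cafeteria islets (2.79% of all probe sets), and 0 members were higher (3.01%). Cafeteria minus standard, the log2 difference was negative for 25 of the 27 members and for 51.9% of all probe sets, and its median was -0.29 over the members and -0.01 over all probe sets. For no member did the groups stand clear of each other, as they did for 1.76% of all probe sets, 0.762% with cafeteria lower.

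A single array carried much of that direction. Standard replicate 1 had the highest signal of the 9 arrays for 19 of the 27 members, against 14.0% of all probe sets. Without it, 17 of the 27 log2 folds were negative and 10 positive, beside 50.8% negative among all probe sets, and the median over members was -0.13. The signs that turned positive, on the probe sets used, were those of Atf3, Dusp1, Dusp6, Klf6, Klf10, Gadd45a, Gadd45g and Zfp36l1. The other tested probe sets of Dusp1 and Klf6 stayed negative, and those of Dusp6 were positive without that array, at 0.13 and 0.21. With any other array left out, 24 to 26 of the 27 were negative. The median farthest from 0, -0.43, came without cafeteria replicate 2, where 52.9% of all probe sets were negative. In that setting 10 of 27 members were lower at an unadjusted limma p under 0.05, where 3.34% of all probe sets were. Without standard replicate 4 there were also 10, where 2.66% of all were. Over the members tested, the mean deviation from the 9-array average was 0.84 (log2) on standard replicate 1 and 0.33 on cafeteria replicate 2. It was 0.05, 0.12 and -0.25 on standard replicates 2, 3 and 4, and -0.42, -0.31, -0.14 and -0.22 on cafeteria replicates 1, 3, 4 and 5. So the arrays of highest level came from different diets. The median deviation of all probe sets lay between -0.014 and 0.023 on every array.

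**Figure D1:**
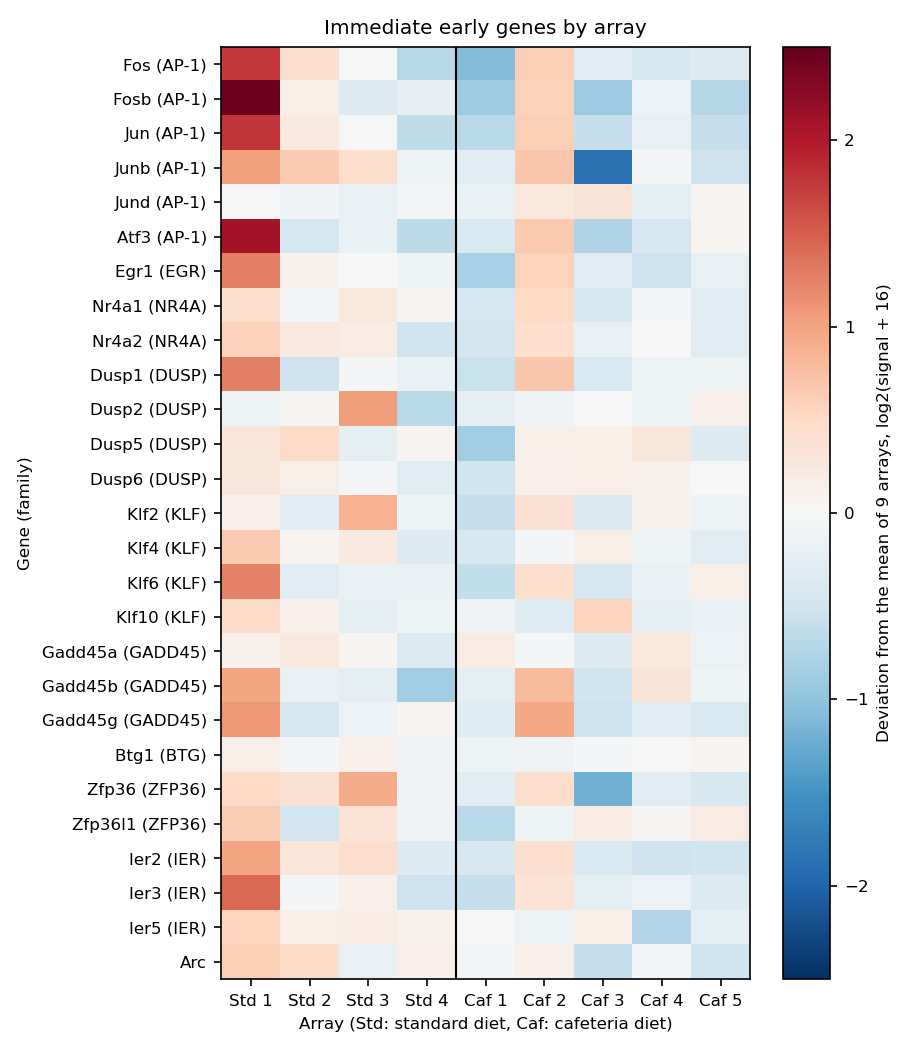
Heat map of 27 immediate early genes (rows, with family) on 4 standard and 5 cafeteria arrays (columns); colour is the deviation of log2(signal + 16) from the gene's mean over 9 arrays. Standard replicate 1 is the highest array for 19 genes and cafeteria replicate 2 the second highest for 14, while Jund, Gadd45a and Btg1 stay pale throughout.

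Markers of other cells and of RNA quality were read on the same arrays. Of 18 macrophage markers, 18 were named, 14 tested and 14 lower in cafeteria islets (median -0.45; 7 of the 14 at an unadjusted limma p under 0.05, 0 called), with a summed signal of 9255 to 16804 in standard and 5501 to 9196 in cafeteria islets; its highest array was standard replicate 3. Of 7 duct markers 3 were tested, and their mean deviation was 1.61 on standard replicate 1, where Krt19 had 1799 against 72.3 to 382 on the other arrays. Their summed signal was 3678 to 6983 and 3046 to 4448. Of 11 endothelial markers 10 were tested (r = 0.73 with the members, and 0.46 without the 2 farthest arrays), with sums of 15786 to 18256 and 14997 to 17598. The same r was 0.69 for duct (0.33 without the 2 farthest), 0.58 for islet endocrine (0.74) and 0.43 for macrophage genes (0.34). It was 0.38 for lymphocyte (0.62), 0.17 for fibroblast (-0.04), 0.03 for acinar (-0.36) and -0.15 for erythroid genes (0.02). Lymphocyte genes, 3 of 12 tested, had a median of -0.75 and their highest level on standard replicate 3, with sums of 784 to 3602 against 566 to 820.0. Acinar genes, 12 of 15 tested, had 0.47, with sums of 3923 to 10073 and 3052 to 11468. Fibroblast genes, 10 of 10 tested, had -0.02, with sums of 13271 to 18110 and 11353 to 21529. Erythroid genes, 3 of 4 tested, had 0.06, with sums of 1903 to 4424 and 2061 to 8152. Of 6 Schwann cell genes 4 were named and 0 passed the filter. Islet endocrine genes, 12 of 13 tested, had a median of 0.07, and the sums overlapped, at 259541 to 364728 and 275124 to 372860. At an unadjusted limma p under 0.05 there were also 1 lymphocyte, 1 endothelial and 1 fibroblast gene, lower in cafeteria islets, and 2 acinar and 1 endocrine genes, higher. No marker named on the array was listed at 0, which does not show that each was detected. Cd79b, a lymphocyte marker under the filter, had 25.7 to 274 in standard and 4.2 to 10.6 in cafeteria islets.

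The ratio of the 3′ to the 5′ beta-actin probe sets, which is higher in more degraded RNA, was 4.84, 3.82, 3.36 and 3.00 on standard replicates 1 to 4 and 2.79, 3.75, 5.63, 3.24 and 4.59 on cafeteria replicates 1 to 5. The array with the highest ratio, cafeteria replicate 3, had a low level of the members. Over 9 arrays the ratio and that level had r = 0.31 (Spearman's rho 0.32). That r was 0.57 without the 2 farthest arrays, cafeteria replicates 1 and 3, and 0.0015 without standard replicate 1. The same ratio for GAPDH lay between 1.29 and 1.64 and was highest on standard replicate 1. It had r = 0.43 with the members' level (rho 0.38), 0.15 without that array and 0.35 without the 2 farthest arrays. With the beta-actin ratio as a covariate the members' median log2 fold was -0.31. The arrays with the highest beta-actin ratio were cafeteria replicate 3 and standard replicate 1. Without both of them the median was -0.13, with 20 of 27 negative. It was also -0.13 without standard replicate 1 alone. The part of these cells and of RNA quality in the members' values was not tested.

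AP-1 is a dimer of a FOS and a JUN protein, and most of its genes spread widely over the arrays. Fos, the classical member, had signals of 19272, 7436, 5665 and 3495 on standard replicates 1 to 4 and of 2652, 8559, 4681, 4243 and 4477 on cafeteria replicates 1 to 5. Standard replicate 1 stood far above the rest, cafeteria replicate 2 came next, and the other arrays of both diets overlapped. The means were 8967 ± 7057 (SD, n = 4) and 4922 ± 2185 (SD, n = 5), a log2 fold of -0.67 ± 0.41 (SE; limma adjusted p = 0.859; exact permutation p = 0.278, two-sided), and -0.20 without standard replicate 1.

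Fosb, a relative of Fos whose splice form persists in stimulated neurons, had 3777, 754, 541 and 588 in standard islets and 359, 1024, 355, 610.0 and 408 in cafeteria islets. The pattern was that of Fos, with a wider gap. The log2 fold was -0.93 ± 0.49 (SE; limma adjusted p = 0.845), and -0.29 without standard replicate 1. Jun, the main partner of Fos, had 8983, 3065, 2588 and 1658 in standard islets and 1612, 3903, 1728, 2274 and 1708 in cafeteria islets. Its log2 fold was -0.64 ± 0.39 (SE; limma adjusted p = 0.859), and -0.16 without that array. The other Jun probe sets, with -0.43 and -0.72, followed the first over the arrays at r = 0.95 and 0.97 (n = 9).

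Junb, which opposes Jun at many targets, had 1501, 1145, 997 and 680.4 in standard islets and 607, 1195, 189, 716 and 505 in cafeteria islets. Here the low value of cafeteria replicate 3 moved the difference more than standard replicate 1 did. Its log2 fold was -0.90 ± 0.39 (SE; limma adjusted p = 0.839; exact permutation p = 0.119), -0.72 without standard replicate 1 and -0.53 without cafeteria replicate 3. Atf3, a stress-induced repressor of the same protein class, had 1461, 242, 294 and 205 in standard islets and 252, 536, 190.1, 244 and 352 in cafeteria islets. Standard replicate 1 and cafeteria replicate 2 were highest, and the log2 fold of -0.37 ± 0.47 (SE) became 0.26 without standard replicate 1. Jund, the JUN gene that cells express at rest, lay between 3671 and 5423 on the 9 arrays, with a log2 fold of 0.12 ± 0.12 (SE). Fosl1 and Fosl2, which join later in the response, were under the filter, with signals between 28.0 and 121 and between 16.9 and 113.

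Among the EGR genes, zinc finger factors of the ERK response, only Egr1 passed the filter. It had 11549, 5181, 4798 and 4474 in standard islets and 2723, 7092, 3979, 3357 and 4222 in cafeteria islets. Standard replicate 1 and cafeteria replicate 2 were again highest, and apart from cafeteria replicate 2 every cafeteria array lay below every standard one. The log2 fold was -0.56 ± 0.29 (SE; limma adjusted p = 0.839; exact permutation p = 0.190), and -0.25 without standard replicate 1. Egr2, at the 36.6th percentile of mean log2 value, had 226 on standard replicate 1 and between 33.8 and 95.4 elsewhere. Egr3 and Egr4, which neurons express more, did not exceed 99.0 and 87.2.

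The NR4A genes encode orphan nuclear receptors that beta cells induce with cyclic AMP. Nr4a1 had 2266, 1668, 2058 and 1740.4 in standard islets and 1256, 2425, 1298, 1649 and 1425 in cafeteria islets. Cafeteria replicate 2 was the highest array for this gene, and the other cafeteria arrays lay below all standard ones. The log2 fold was -0.29 ± 0.18 (SE; limma adjusted p = 0.859; exact permutation p = 0.222). Nr4a2 lay between 209 and 454 with -0.23 ± 0.23 (SE), and Nr4a3 was under the filter, with signals between 19.1 and 198.

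The DUSP genes encode the phosphatases that switch off MAP kinases. Dusp1, which acts on p38 and JNK in the nucleus, had 5510.4, 1594, 2212 and 2036 in standard islets and 1552, 3659, 1766, 2104 and 2096 in cafeteria islets. It had the Fos pattern, and the log2 fold of -0.23 ± 0.32 (SE) became 0.14 without standard replicate 1. Its other tested probe set had -0.33, and -0.15 without that array. Dusp6, a cytoplasmic phosphatase of ERK, lay between 853 and 1474 with -0.05 ± 0.16 (SE), and its other tested probe sets had 0.12 and -0.05. Dusp5, a nuclear phosphatase of ERK, had -0.27 ± 0.23 (SE), and Dusp2, at the 43.2nd percentile, -0.13 ± 0.30 (SE). The highest array stood 1.71-fold over the lowest for Dusp6 and 2.54-fold for Dusp5, but probe sets of a gene disagreed on this range. The others of Dusp6 spanned 2.64-fold and 3.61-fold, the latter with standard replicate 1 at 2.64-fold over the other standard arrays, and the other probe set of Dusp1 spanned 2.72-fold.

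KLF proteins are zinc finger factors that bind GC-rich promoters. Klf6 had 2695 on standard replicate 1 and between 732 and 1496 on the others, and its log2 fold of -0.29 ± 0.29 (SE) was 0.07 without that array. Its other tested probe sets had -0.38 and -0.36, and stayed negative without that array, at -0.17 and -0.23. Klf4 had 1249, 827, 931 and 622 in standard islets and 588, 770.1, 875, 728 and 645 in cafeteria islets, a log2 fold of -0.29 ± 0.18 (SE; limma adjusted p = 0.859). Its ranges overlapped, with standard replicate 1 alone above 1000. Klf2, which endothelial cells induce under flow, was highest on standard replicate 3, at 3881, and had -0.27 ± 0.23 (SE); its other tested probe sets had 0.17, -0.24 and -0.14. Klf10, a TGF-beta-induced repressor, had its peak of 1557 on cafeteria replicate 3 and a log2 fold of -0.11 ± 0.19 (SE).

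The GADD45 genes encode small proteins of the stress and DNA damage response. Gadd45g had 3742 on standard replicate 1, 3410.0 on cafeteria replicate 2 and between 1193 and 1826 elsewhere, and Gadd45b had 345, 298 and between 83.7 and 211 in the same order. Their log2 folds were -0.25 ± 0.32 (SE) and 0.13 ± 0.35 (SE). Gadd45a, the p53 target of the family, lay between 639 and 975 with no array apart and had -0.02 ± 0.15 (SE).

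The ZFP36 proteins bind AU-rich elements in messengers, among them those of other immediate early genes. Zfp36 had the smallest limma p of the list (unadjusted, 0.0128). It had 2172, 1993, 2910.0 and 1428 in standard islets and 1258, 2061, 651, 1258 and 1144 in cafeteria islets, so that cafeteria replicate 2 alone reached into the standard range. The means were 2126 ± 611 (SD, n = 4) and 1274 ± 506 (SD, n = 5), a log2 fold of -0.78 ± 0.27 (SE; limma adjusted p = 0.839; exact permutation p = 0.0556). Unlike that of Fos, this difference did not rest on standard replicate 1: it was -0.75 without it, and between -0.97 and -0.56 with each array left out. Zfp36l1 had -0.17 ± 0.22 (SE). Btg1, which restrains growth, lay between 16169 and 19639 with -0.07 ± 0.09 (SE).

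Of the IER genes, Ier2 encodes a nuclear protein and Ier3 a survival factor. Ier2 had 2175, 1357, 1490.3 and 869.7 in standard islets and 818, 1455, 836, 759 and 764 in cafeteria islets. Again all cafeteria arrays but replicate 2 lay below the standard ones, and the log2 fold was -0.63 ± 0.24 (SE; limma adjusted p = 0.839; exact permutation p = 0.0794), or -0.42 without standard replicate 1. Ier3 had 1212, 423, 479.5 and 299 in standard islets and 284, 560.5, 372, 393 and 340.0 in cafeteria islets. Its log2 fold of -0.44 ± 0.32 (SE; limma adjusted p = 0.859) was -0.05 without standard replicate 1. Ier5, which acts on the heat shock factor HSF1, had 1266, 963, 985 and 920.2 in standard islets and 859, 797, 968, 519 and 737 in cafeteria islets. Only cafeteria replicate 3 reached the standard range. Its log2 fold was -0.42 ± 0.17 (SE; limma adjusted p = 0.839), between -0.51 and -0.29 with each array left out, and its exact permutation p of 0.0397, unadjusted, was the lowest of the 34 members; the smallest that 126 splits can give is 0.0079.

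Arc, a synaptic regulator in neurons, had 288, 258, 159 and 203 in standard islets and 180.5, 204, 118, 179 and 125 in cafeteria islets, a log2 fold of -0.45 ± 0.22 (SE; limma adjusted p = 0.839). Its groups overlapped. Myc, a growth regulator, was under the filter, with 166, 12.6, 150.1 and 53.0 in standard islets and 60.8, 86.0, 69.8, 99.3 and 24.6 in cafeteria islets. Its groups overlapped. Without cafeteria replicate 2, Egr1, Nr4a1, Zfp36 and Ier2 lay lower on every cafeteria array than on any standard one, 4 of 27 members where 3.43% of all probe sets stood clear; these genes were counted after the values had been seen.

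**Figure D2:**
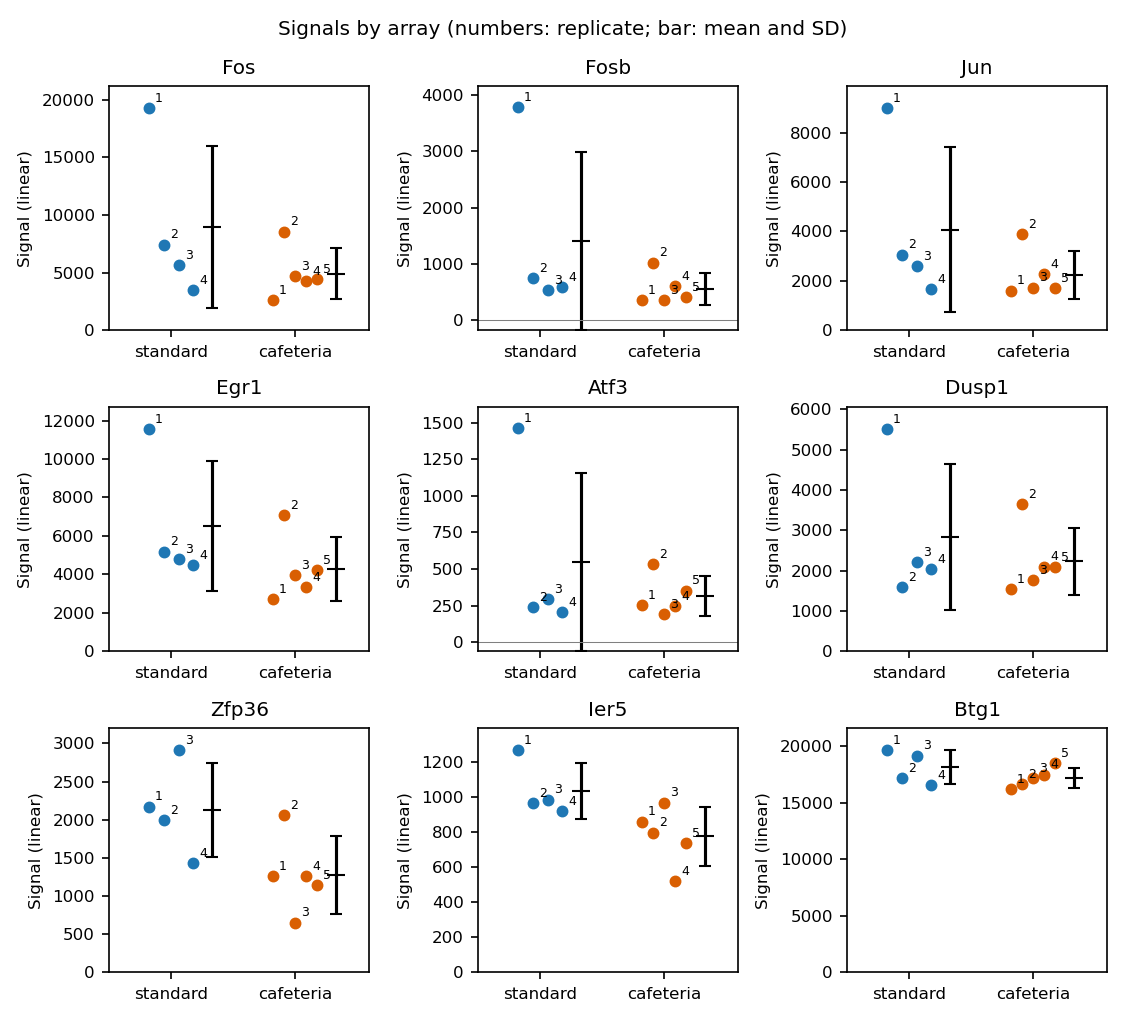
Linear signals of 9 immediate early genes (panels) by diet; each point is an array, with its replicate number, and the bar gives the mean and SD of 4 standard or 5 cafeteria arrays. In Fos, Fosb, Jun, Egr1, Atf3 and Dusp1 standard replicate 1 stands apart and cafeteria replicate 2 is next; Zfp36 and Ier5 differ in more arrays, and Btg1 is flat.

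By family, the median log2 fold of the tested members was -0.65 for AP-1 (5 of 6 negative), -0.56 for EGR (Egr1 alone), -0.26 for NR4A (2 of 2), -0.18 for DUSP (4 of 4), -0.28 for KLF (4 of 4), -0.02 for GADD45 (2 of 3), -0.47 for ZFP36 (2 of 2) and -0.44 for IER (3 of 3). None of these families held a called gene. With each array left out in turn the AP-1 median lay between -0.99 and -0.18, and its value nearest 0 was the one without standard replicate 1. The 7 members under the filter were Fosl1, Fosl2, Egr2, Egr3, Egr4, Nr4a3 and Myc, and with them included the median over 34 members was -0.27 and 31 of the log2 folds were negative.

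**Figure D3:**
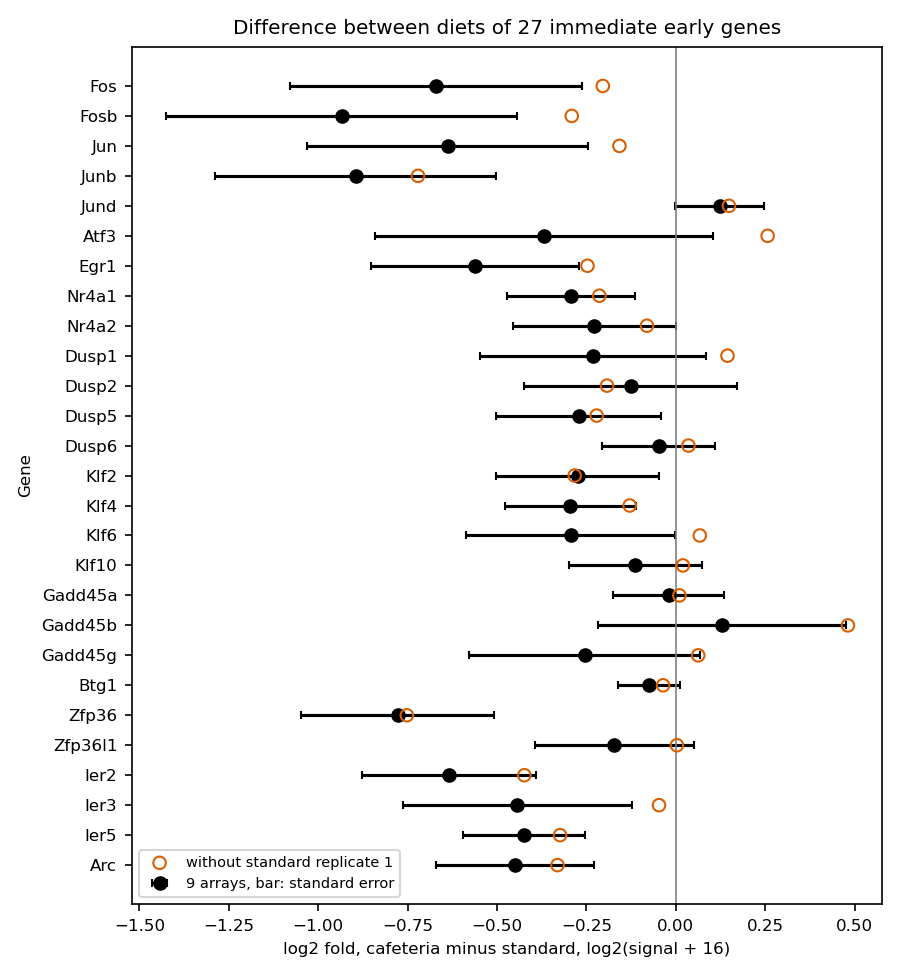
Log2 fold of cafeteria over standard for 27 immediate early genes, on the scale of log2(signal + 16); black points are the values from 9 arrays with their standard error, and open circles the values without standard replicate 1. The open circles of Fos, Fosb, Jun, Atf3 and Ier3 lie nearer 0 or beyond it, while those of Zfp36, Klf2 and Jund hardly move.

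The members varied together from array to array more than genes did in general. Over the 351 pairs of tested members the median Pearson r across 9 arrays was 0.52, and 27.9% of pairs had r over 0.7. Over all 53525031 pairs of the 10347 genes tested, the median was 0.004 and the share 3.84%. With diet means removed the members' median was 0.45 (4.74% of all pairs over 0.7, and 25.4% of the members'). Without standard replicate 1 it was 0.37 (17.1% of pairs over 0.7, against 5.16% of all pairs). All these points share the arrays' RNA and scaling, and the values are a description.

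Fos served as the reference. Of 26 other members, 14 had r over 0.7 with it over 9 arrays, where 2.5% of 10346 genes had, and 8 of the 14 kept an r over 0.7 without standard replicate 1. Jun, Ier3 and Egr1 were the genes closest to Fos of all those tested, with r of 0.96, 0.96 and 0.96 (Spearman's rho 0.95, 0.93 and 0.88), and 0.90, 0.91 and 0.89 without that array. Nr4a2 held equally well, at 0.91 and 0.93. Atf3 and Klf6 depended more on standard replicate 1, with r of 0.86 and 0.88 that became 0.56 and 0.64 without it. Members with little relation to Fos were Dusp2 (r = 0.15), Gadd45a (0.19) and Jund (0.25). Among genes outside the list, C2cd4b, Sat1 and Hspa1a came closest, at 0.94, 0.94 and 0.94; they were picked by this value.

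Many of the members that were high on standard replicate 1 were high on cafeteria replicate 2 as well. Against the median of the other standard arrays, standard replicate 1 stood 6.28-fold higher for Fosb, 5.73-fold for Atf3, 3.46-fold for Jun and 3.40-fold for Fos. It was at least 2-fold higher for 10 of 27 members, against 1.72% of all probe sets. This was not particular to the members. On the same array 4 of 12 acinar, 2 of 3 duct and, of a list described below, 3 of 9 heat shock genes tested also reached 2-fold. The count was 1 of 14 for macrophage, 0 of 12 for endocrine and 0 of 10 for endothelial genes. Cafeteria replicate 2, against the other cafeteria arrays, was 2.61-fold higher for Fosb, 2.48-fold for Gadd45g, 2.26-fold for Jun and 1.96-fold for Fos. It was at least 1.5-fold higher for 16 of 27, against 5.93% of all probe sets, and these included all 10 of the former. Of the lists described below, 3 of 9 heat shock, 2 of 8 NF-kB-inducible and 2 of 22 other primary response genes also reached 1.5-fold there. No acinar or duct gene tested did. The heat shock genes Hspa1a, Dnajb1 and Hspb1 passed on both arrays, Hspa1a at 4.88-fold and 4.71-fold. Across the 27 members the log2 deviations on these arrays had a Pearson r of 0.69 and a Spearman's rho of 0.66, against -0.018 and -0.053 across the 18625 probe sets; genes are not independent replicates, and both arrays were picked for their high level. Junb, Zfp36 and Nr4a1 were further up on cafeteria replicate 2, at 2.12-fold, 1.71-fold and 1.77-fold, than on standard replicate 1, at 1.5-fold, 1.09-fold and 1.30-fold. The reverse held for Zfp36l1, at 1.64-fold on standard replicate 1 and 0.861-fold on cafeteria replicate 2, for Klf10, at 1.49-fold and 0.883-fold, and for Klf4, at 1.5-fold and 1.12-fold.

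**Figure D4:**
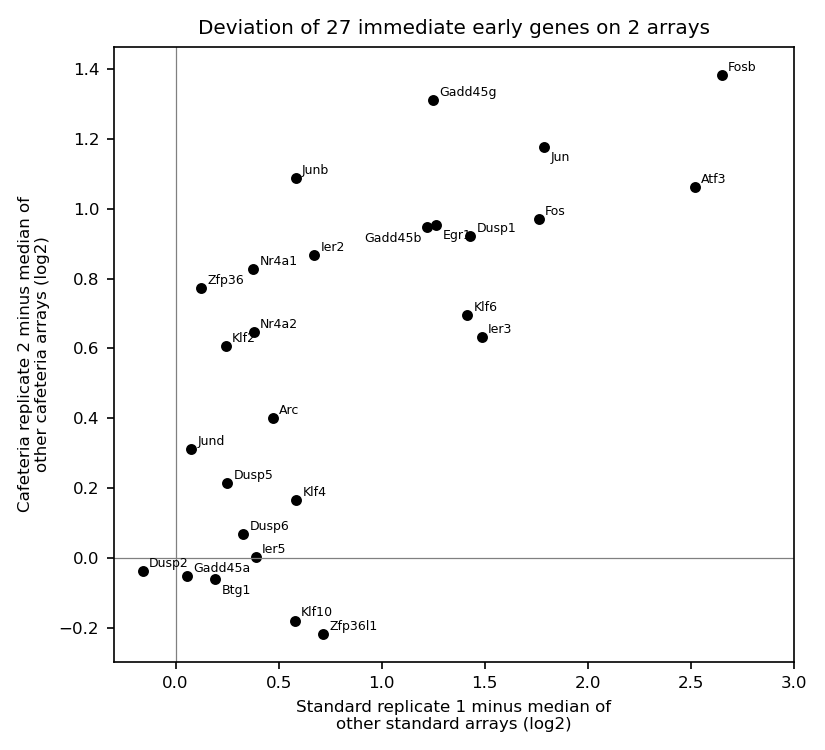
Deviation (log2) of 27 immediate early genes on standard replicate 1 from the median of the other standard arrays (horizontal) against that on cafeteria replicate 2 from the median of the other cafeteria arrays (vertical). Fosb, Atf3, Jun and Fos lie far out on both axes, and Dusp2, Gadd45a and Btg1 near 0 on both (r = 0.69 across genes).

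Other genes of the response followed in part. Of 28 further primary response genes, 22 were tested and 0 passed limma's adjusted test in either direction, with 14 lower and 8 higher and a median log2 fold of -0.09; at an unadjusted limma p under 0.05, 2 were lower and 1 higher. Crem, which encodes the cyclic AMP repressor ICER, had 656 ± 57.0 (SD, n = 4) against 1049 ± 273 (SD, n = 5), a log2 fold of 0.62 ± 0.19 (SE; limma adjusted p = 0.839), opposite in sign to most members. Sik1, a kinase that CREB induces, had -0.64 ± 0.24 (SE). On standard replicate 1, 2 of the 22, Rasd1 and Rgs2, were at least 2-fold up. The chain that leads to these genes, of MAP kinases, SRF and CREB, had 25 of 36 genes tested, 16 lower and 9 higher, with 0 called (limma; unadjusted, 2 lower and 1 higher) and a median of -0.07. Mef2c had -0.57 ± 0.22 (SE) and Map2k3 0.54 ± 0.23 (SE). None of the 25 was 2-fold up on standard replicate 1. The mean deviation of this list lay between -0.14 and 0.12 on the 9 arrays.

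NF-kB-inducible genes, of which 8 of 13 were tested, were lower in 8 of 8 cases with a median of -0.51 and 0 called (limma; unadjusted, 4 lower). Nfkbia, the inhibitor of NF-kB, had -0.54 ± 0.20 (SE) and Icam1, an adhesion molecule, -0.68 ± 0.25 (SE). The mean level of this list moved with that of the members over the 9 arrays (r = 0.90, Spearman's rho 0.93, and 0.85 without the 2 arrays farthest from its median). Heat shock genes, with 9 of 12 tested, 0 called (limma; unadjusted, also 0) and a median of -0.06, moved with them too (r = 0.91, rho 0.68), though r was 0.47 without standard replicate 1 and cafeteria replicate 2. Hspa1a, the inducible HSP70, had 23274, 7966, 4758 and 2021.5 in standard islets and 1814, 10294, 2599, 2855 and 1373 in cafeteria islets. Its log2 fold was -1.18 ± 0.63 (SE; limma adjusted p = 0.849), and Hspd1, a mitochondrial chaperone, had 0.13 ± 0.11 (SE). Hspa1a thus had the same arrays on top as Fos.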

How the data were processed

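Per the submitters' processing notes, the authors used MAS5, and each deposited value is a linear intensity; how MAS5 was set was not given in the sources used here. After cutting 2% from each end, the mean of every array was 500, so no further scaling was applied. Controls (57 probe sets) were dropped. Of the remaining 31042 probe sets, 20826 have 1 symbol, 436 several and 9780 none in the annotation supplied; 20758 of the former matched a current rat gene by identifier (GRCr8).

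log2(signal + 16) was modelled by diet alone, using limma 3.58.1 under R 4.3.3 with an intensity trend in the variance, on 18625 probe sets. The filter used the mean of the log2 values, and its limit equals a signal of about 91.1. The added 16 makes folds of dim genes too small. The fit was tested on simulated data, 200 of 18625 probe sets changed, and it missed most changes of 0.5 (log2). Exact two-sided permutation p-values, over 126 splits, are unadjusted. Correlations and motif searches used Python 3.11.15.

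Replicate numbers were not treated as pairs in the main fit. All 35 members are accounted for; values on every array are given for the 12 with the smallest p and for Fos, Jun, Egr1, Nr4a1 and Myc, and for Atf3, Dusp1 and Hspa1a after their values were seen. From each other pathway list the 2 genes of smallest p are named. Members and lists were chosen with earlier results of these data known. Alternatives were other pseudocounts (1, 64), normalisations, filters, variance models, array weights, a replicate block, averaged probe sets and leaving out each array; the beta-actin settings were added after the data were seen.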

Additional observations from a re-analysis of the deposited data

Results flagged for a closer look

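Of 68 pairs of a member and a diet group examined for a value far from the rest of its group, 8 had a gap to the nearest array above Dixon's 95% critical value; chance flags about 1 in 20. High values on standard replicate 1 were those of Fosb (3777), Egr1 (11549) and Klf6 (2695). On cafeteria replicate 2, Gadd45g (3410.0) and Ier2 (1455) stood apart upwards. Klf10 was high on cafeteria replicate 3 (1557), Egr4, a dim gene, was high on cafeteria replicate 4 (87.2), and Dusp6 was low on cafeteria replicate 1 (853). Values were compared as log2(signal + 16) and are given as signals. Fos and Jun were also highest on standard replicate 1 but did not reach the critical value.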

How the results depend on the processing

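No member was called in any of the 22 alternatives, or at an adjusted p under 0.10; the lowest adjusted p of a member was 0.415, with array weights. Of 591 member values under these alternatives, 566 kept their sign, and 17 of 27 members kept it throughout. With each array left out, the members' median log2 fold lay between -0.43 and -0.13 and the median r between 0.37 and 0.58; the count of members whose groups stood clear lay between 0 and 4, the 4 without cafeteria replicate 2 (3.43% of all probe sets) and 1 of 27 (Ier5) without cafeteria replicate 3 (2.69% of all). Without both arrays of the highest beta-actin ratio, a setting chosen after seeing the data, that count was 1 of 27, where 7.11% of all probe sets stood clear. The signs that turned were as follows, and the cause was not tested. Left-out arrays gave a range of -0.66 to 0.26 for Atf3, -0.45 to 0.14 for Dusp1, -0.37 to 0.20 for Dusp2, -0.15 to 0.073 for Dusp6, -0.43 to 0.067 for Klf6, -0.26 to 0.020 for Klf10, -0.13 to 0.059 for Gadd45a, -0.14 to 0.48 for Gadd45b, -0.52 to 0.063 for Gadd45g and -0.37 to 0.0031 for Zfp36l1. Gadd45a had 0.0212 with median centring, 0.017 with the replicate block and 0.076 with array weights. Dusp6 had 0.0292 with array weights and 0.011 with averaged probe sets. Without both arrays of the highest beta-actin ratio Atf3 had 0.41, Dusp1 0.21, Klf6 0.14, Gadd45a 0.089 and Gadd45g 0.17. The replicate number as a block, in which cafeteria replicate 5 has no partner and does not bear on the difference, gave a members' median of -0.26 and 0 calls. Deviations of same-numbered arrays correlated at -0.38, -0.05, -0.12 and 0.03, and those of differently numbered arrays at up to 0.31. These values show no sign of pairing by number, but so few arrays cannot exclude it. For the 7 members under the filter, low signal limits what could be seen.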
